A study of Mus musculus with 2 samples.

Results

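Imprinted genes are transcribed mainly from the maternal or the paternal chromosome copy, and 10 of them were followed through the cell types of the newborn mouse dentate gyrus, the part of the hippocampus in which granule neurons form. The genes were taken by symbol: Meg3, Rian, Mirg, Dlk1, Igf2, H19, Peg3, Plagl1, Ndn and Snrpn. They were selected on known imprinting and on 1 measured value, the UMIs of Meg3 in neuroblasts, which had been seen higher in the knockout; the Meg3 values in neuroblast-like cells are therefore a description and support nothing. Of these 10 names, 9 had a row among the 31053 genes of the count tables, and Rian was not analysed here.

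The Kdm6b KO library came from postnatal day 2 mice carrying hGFAP-Cre and floxed Kdm6b (Kdm6bF/F). The control library came from their littermates, labelled WT, and the labels do not say which Cre or floxed alleles these carried. Kdm6b encodes a demethylase that removes the repressive H3K27me3 mark from histone H3. The human GFAP promoter drives Cre in radial glia, so vessel cells and microglia, which arise outside that lineage, are not targeted. Cells of 2 animals per genotype went into 1 library each, with 2500 cells aimed at, and were counted by 10x Genomics 3′ single-cell RNA sequencing, which tags each captured mRNA with a unique molecular identifier (UMI). With 1 library per genotype there is no test between genotypes: values are given for each library with 95% intervals that cover counting error only, and a difference between libraries cannot be told apart from a difference between animals.

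After filtering, 1936 Kdm6b KO cells with 25549053 UMIs and 2956 control cells with 31534760 UMIs remained, at medians of 9292.5 and 7344 UMIs per cell, and 6 cell barcodes occurred in both libraries. Cell classes were rebuilt by clustering without the imprinted genes and are named "-like" after marker genes. Neuroblast-like cells numbered 134 in the Kdm6b KO library and 383 in the control library, those like radial glia/neural stem cells, called radial glia-like below, 185 and 265, and pyramidal/excitatory neuron-like cells 621 and 796. No Kdm6b KO cell had a Y-linked UMI without Xist, against 986 control cells (33.4%), so the sex of the animals differed between the libraries and cannot be told apart from genotype. Kdm6b itself gave 57.2 CPM (UMIs of a gene for each 1000000 UMIs of the class) in the Kdm6b KO library and 57.8 CPM in the control library over all cells, and 28.7 and 58.5 CPM in intermediate progenitor-like cells; a 3′ tag does not check a deletion elsewhere in the gene.

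Imprinting is set in the germline by DNA methylation of control regions and is kept in the embryo by zinc finger proteins such as ZFP57, which bind the methylated copy, together with TRIM28 and DNA methyltransferases. On mouse chromosome 12 the maternal copy yields the non-coding RNAs Meg3, Rian and Mirg, which host many small RNAs, and the paternal copy yields Dlk1, a Notch-related membrane protein. On chromosome 7 the neighbours H19 (a maternal non-coding RNA) and Igf2 (a paternal growth factor) share an insulator, and Ndn, Snrpn and Peg3 are paternal. Plagl1, a paternal zinc finger factor, lies on chromosome 10. The UMIs were not assigned to parental copies, so every value below is the sum over both.

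The host transcripts carry microRNAs, which are not measured by this assay, and their sequences show what processing of each host RNA can release. RefSeq (GRCm38.p6) places 3 mature microRNAs in Meg3, 26 in Mirg, 2 in H19 and 2 in Igf2, out of 1738 in its mouse table. Those of Meg3, H19 and Igf2 follow 5′ to 3′, with the only pair in Mirg that shares a seed, and the capitals mark the seed, bases 2 to 8.
miR-1906 (Meg3): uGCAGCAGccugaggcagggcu
miR-770-5p (Meg3): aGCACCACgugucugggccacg
miR-770-3p (Meg3): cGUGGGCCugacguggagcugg
miR-453 (Mirg): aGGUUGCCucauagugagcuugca
miR-496a-5p (Mirg): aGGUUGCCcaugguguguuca
miR-675-5p (H19): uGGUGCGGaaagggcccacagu
miR-675-3p (H19): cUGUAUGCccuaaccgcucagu
miR-483-5p (Igf2): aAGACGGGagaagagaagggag
miR-483-3p (Igf2): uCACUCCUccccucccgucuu
The 26 microRNAs of Mirg came from 14 hairpins and carried 25 different seeds.

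ZFP57 binds the letters TGCCGC when their CpG is methylated, so the promoters were searched for TGCCGC on both strands, in windows of 300 bases around each RefSeq start. It occurred in 4 of 16 promoters of the imprinted genes, against 11.6% of all 32851 promoters in the table, and these 4 belonged to Meg3, Plagl1, Snrpn and Igf2. The 16 include a promoter of Rian and none of H19, and are not separate genes: Snrpn and Igf2 have 4 each and Meg3 has 2. The promoters of Meg3 and Plagl1 are shown because both hold the letters, on the reverse strand and in capitals here, and both genes recur in the values of radial glia-like cells.
Meg3, chr12:109540746-109541045, plus strand, GRCm38.p6: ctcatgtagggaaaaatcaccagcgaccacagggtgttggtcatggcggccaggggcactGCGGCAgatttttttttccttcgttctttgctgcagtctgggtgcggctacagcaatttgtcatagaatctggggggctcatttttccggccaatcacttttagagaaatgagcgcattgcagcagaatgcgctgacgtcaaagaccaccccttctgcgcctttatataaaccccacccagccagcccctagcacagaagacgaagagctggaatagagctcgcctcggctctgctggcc
Plagl1, chr10:13090582-13090881, plus strand, GRCm38.p6: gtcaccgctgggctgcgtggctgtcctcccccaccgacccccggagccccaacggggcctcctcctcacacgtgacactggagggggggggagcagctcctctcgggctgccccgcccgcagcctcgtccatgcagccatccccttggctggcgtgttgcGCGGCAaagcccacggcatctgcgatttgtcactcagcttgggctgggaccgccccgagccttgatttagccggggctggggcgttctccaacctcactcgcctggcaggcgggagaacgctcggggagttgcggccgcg
The Meg3 window shown held 13 CpG pairs and the Plagl1 window 26, against a median of 7 over all promoters. The other Meg3 window held 1 CpG pair and no TGCCGC. A match of letters is a description, and methylation was not measured.

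Across cell classes, Meg3, Ndn and Snrpn had their high levels in neurons in both libraries, Plagl1 in ependymal-like and radial glia-like cells, and Dlk1 and Igf2 in vessel, mural or leptomeningeal cells. H19 differed between the libraries: it was at 63.6 CPM in radial glia-like cells in Kdm6b KO, with 40 of its 41 mural UMIs in 1 cell, and at 208 CPM in leptomeningeal fibroblast-like cells in control. The mean CPM of the named non-neural classes (endothelial-, mural-, leptomeningeal fibroblast- and microglia-like), with 1 CPM added, exceeded that of the named neural classes in both libraries for 3 genes. These were Dlk1 at log2 5.39 in Kdm6b KO and 5.44 in control, Igf2 at 3.53 and 3.97, and H19 at 1.80 and 2.70. The Kdm6b KO value of H19 rests on that 1 mural-like cell, without which mural-like H19 was at 4.23 CPM, against 170 CPM with it. Snrpn had the lowest value, at -3.01 in Kdm6b KO and -3.04 in control.

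**Figure D1:**
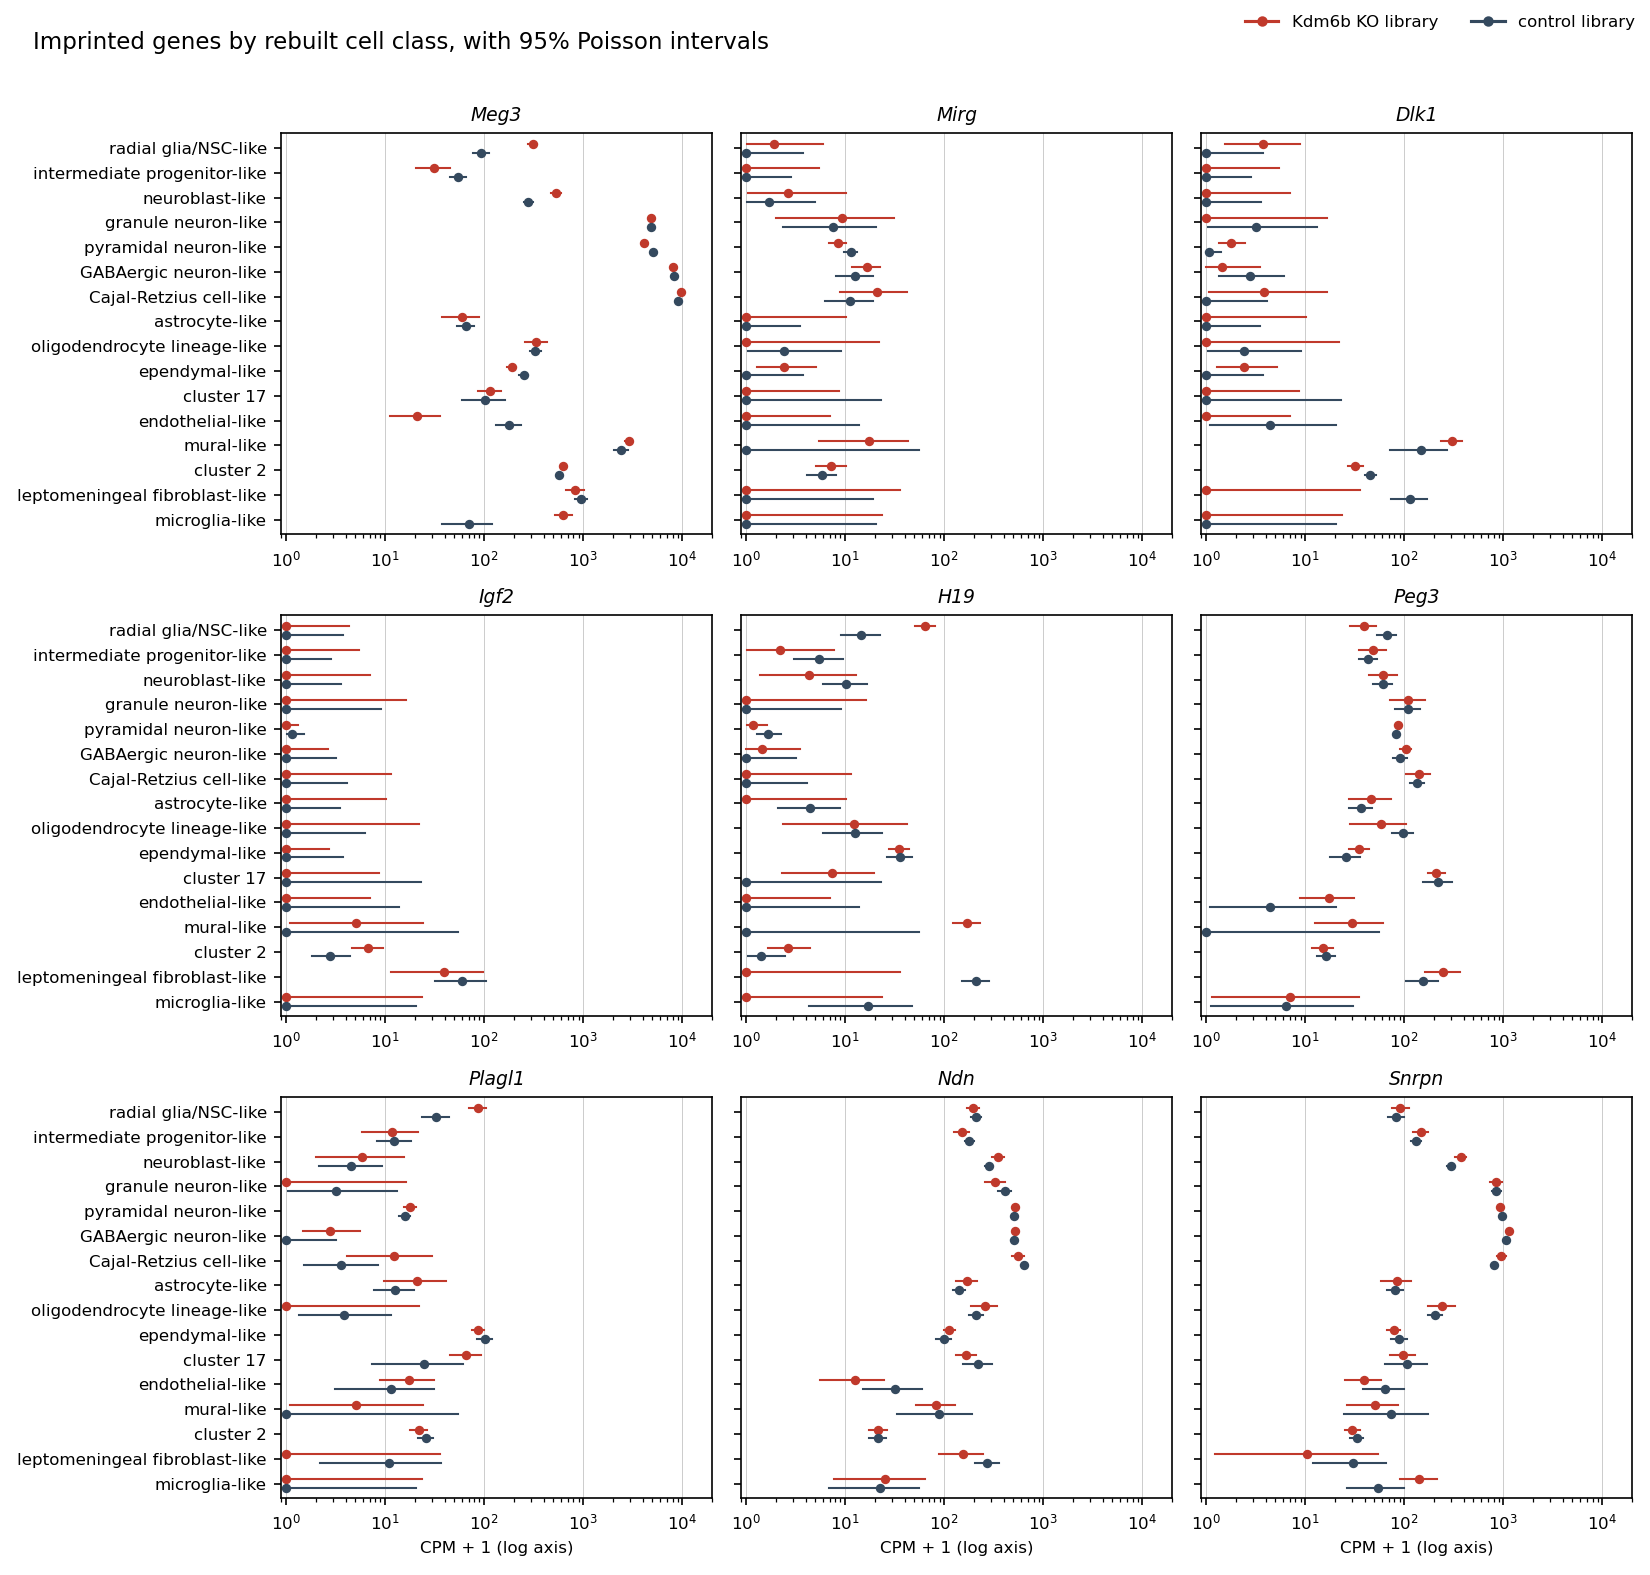
CPM + 1 on a log axis for the 9 imprinted genes in each rebuilt class, with Kdm6b KO (red) drawn above control (blue) and bars for 95% Poisson intervals. Meg3, Ndn and Snrpn sit farthest right in the neuron-like classes, and Dlk1 and Igf2 in mural-like, cluster 2 or leptomeningeal fibroblast-like cells; the high mural-like H19 point of Kdm6b KO holds 40 of 41 UMIs from 1 cell.

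Between the libraries, most imprinted genes differed by less than 1.5-fold. Over all cells, 2 of the 9 genes (Igf2 and H19) were at least 1.5-fold higher in Kdm6b KO and 0 lower. Of all genes with at least 20 UMIs, 8.36% were higher and 5.37% lower by that fold, 13.7% in either direction. The fold interval of Igf2, 0.869 to 2.82, held 1. In neuroblast-like cells 4 genes had 20 UMIs, of which 1 (Meg3) was past 1.5-fold, higher, and 3 were within it. Of all genes there, 18.5% passed, 8.14% higher and 10.4% lower. Meg3 was selected on its value in these cells, so this count cannot be judged against that share. In radial glia-like cells 3 of 6 were higher (Meg3, H19 and Plagl1) and 1 was lower (Peg3), against 25.4% of all genes, 13% higher and 12.4% lower. In intermediate progenitor-like cells 1 of 5 was lower (Meg3), against 19.7% of all genes, 7.29% higher and 12.4% lower. In pyramidal/excitatory neuron-like cells 0 of 6 passed against 13% of all genes, in GABAergic neuron-like cells 0 of 5 against 12.8%, and in ependymal-like cells 0 of 6 against 16.3%. Plagl1 was the 1 of 5 genes past 1.5-fold in astrocyte-like cells, where 22.6% of all genes passed, and its interval held 1.

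**Figure D2:**
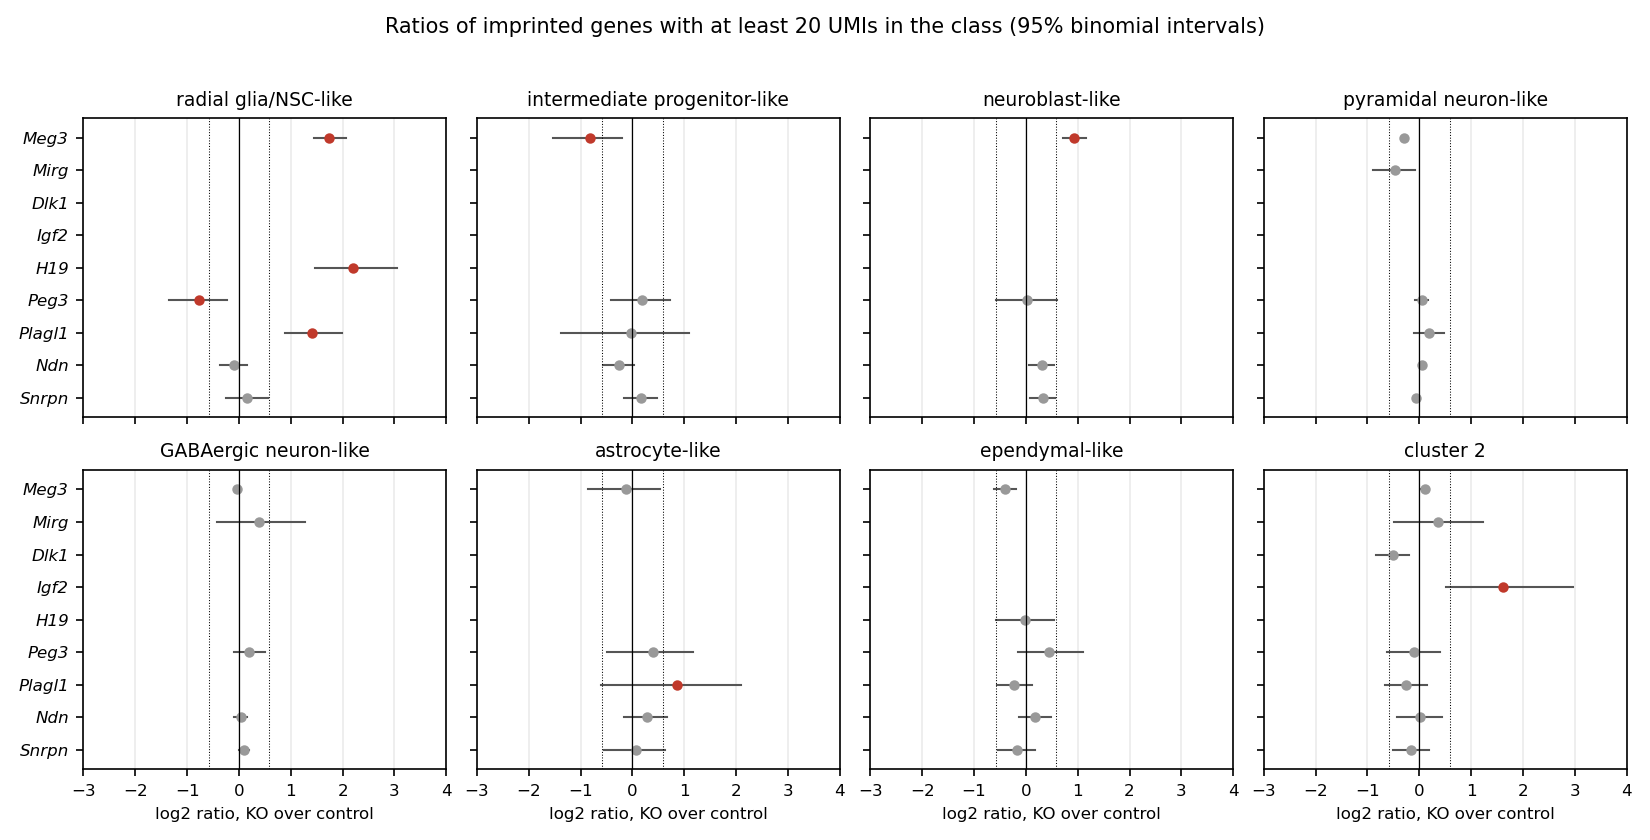
Log2 ratio of CPM, Kdm6b KO over control, for imprinted genes with at least 20 UMIs in each of the 8 units with 50 or more cells per library, with 95% binomial intervals. Dotted lines mark 1.5-fold and red points lie past it: Meg3 lies right of the lines in neuroblast-like and radial glia/NSC-like cells and left of them in intermediate progenitor-like cells, and all points of pyramidal, GABAergic and ependymal-like cells lie within them.

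Meg3 (chr12:109541001-109571726, plus strand, GRCm38), a long non-coding RNA that is retained in the nucleus, marked mature neurons. Cajal-Retzius cell-like cells held 9768 CPM in Kdm6b KO (95% interval 9445 to 10100) and 9096 CPM in control (8923 to 9271), the top of the order among the named classes. GABAergic neuron-like cells followed at 8078 CPM in Kdm6b KO and 8284 CPM in control, and granule neuron-like cells had 4890 CPM (4613 to 5178) in Kdm6b KO and 4872 CPM (4671 to 5080) in control, whose intervals overlapped. Mural-like cells, which wrap small vessels, held 2886 CPM in Kdm6b KO and 2426 CPM in control, above any other non-neuronal named class. Pyramidal/excitatory neuron-like cells had 4151 CPM in Kdm6b KO and 5103 CPM in control (log2 ratio -0.30), below granule neuron-like cells in the Kdm6b KO library and, with overlapping intervals, above them in the control library. Within the 4 clusters of that class the log2 ratios lay between -0.17 and 0.08, and the cluster with the most Meg3 held 110 Kdm6b KO and 338 control cells. Over all cells Meg3 gave 2994 CPM in Kdm6b KO and 3295 CPM in control (log2 ratio -0.14). The gene Gm26906 lies antisense to Meg3, and whether the counting used strand is not given in the sources used here.

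Neuroblast-like cells are named after markers of young neurons. There Meg3 had 325 UMIs in Kdm6b KO, or 534 CPM (477 to 595), against 391 UMIs in control, or 279 CPM (252 to 308). The log2 ratio was 0.94, with an interval of the fold from 1.65 to 2.22. The difference lay in 1 of the 2 clusters of that class. Cluster 3, led by Prox1 and Gal, held 577 CPM in Kdm6b KO and 173 CPM in control (log2 ratio 1.73, fold interval 2.72 to 4.09). Cluster 13, led by Sema3c and Igfbpl1, held 449 CPM in Kdm6b KO and 495 CPM in control (log2 ratio -0.14). Granule neuron markers summed to 92.6 CPM in Kdm6b KO and 58.7 CPM in control in cluster 13, against 1349 and 1289 CPM in cluster 3. Pyramidal neuron markers summed to 2657 and 3213 CPM in cluster 13. In cluster 3, 1 of 4 imprinted genes passed 1.5-fold, and 21.4% of all genes did. That 1 gene was Meg3, selected on its value in neuroblasts, so the count is a description.

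**Figure D3:**
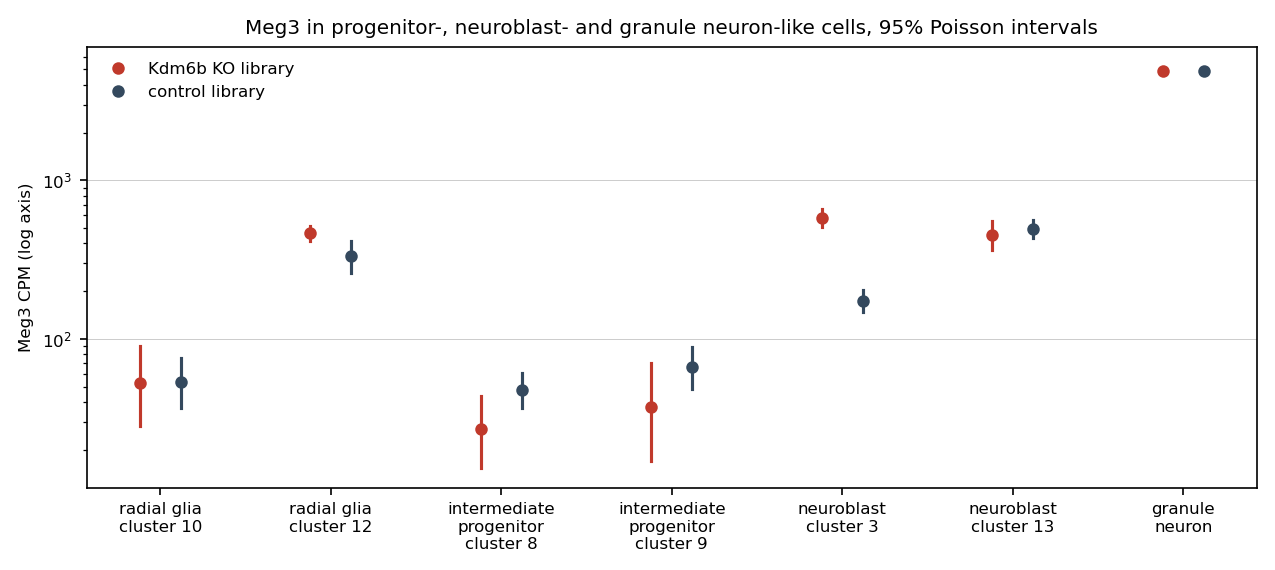
Meg3 CPM on a log axis in the clusters of progenitor-, neuroblast- and granule neuron-like cells, with Kdm6b KO (red) left of control (blue) and bars for 95% Poisson intervals. The libraries are farthest apart in neuroblast cluster 3 (577 CPM in Kdm6b KO, 173 CPM in control) and meet in granule neuron-like cells (4890 and 4872 CPM).

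Few cells carried the Meg3 difference in cluster 3. A Meg3 UMI was seen in 34 of 92 Kdm6b KO cells (37.0%) and in 100 of 261 control cells (38.3%), shares that lay close together. The cells with a UMI averaged 6.85 UMIs in Kdm6b KO and 1.63 in control. At least 5 UMIs were found in 15 Kdm6b KO cells (16.3%) and in 5 control cells (1.92%), and at least 10 UMIs in 8 and 0 cells, with highest cells of 31 and 9 UMIs. The 10 highest cells held 73.4% of the Meg3 UMIs of the cluster in Kdm6b KO and 31.9% in control, and without them the levels were 171 and 124 CPM. After thinning every cell to 2000 UMIs, 27.4% of Kdm6b KO cells and 30.1% of control cells of cluster 3 had a Meg3 UMI, against 13.6% and 11.1% of microglia-like cells, a type not known to transcribe Meg3, whose shares rest on 3 of 22 and 4 of 36 cells. Median depths in cluster 3 were 4501 UMIs in Kdm6b KO and 3621 UMIs in control, and in microglia-like cells 5033 and 3700.5 UMIs.

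**Figure D4:**
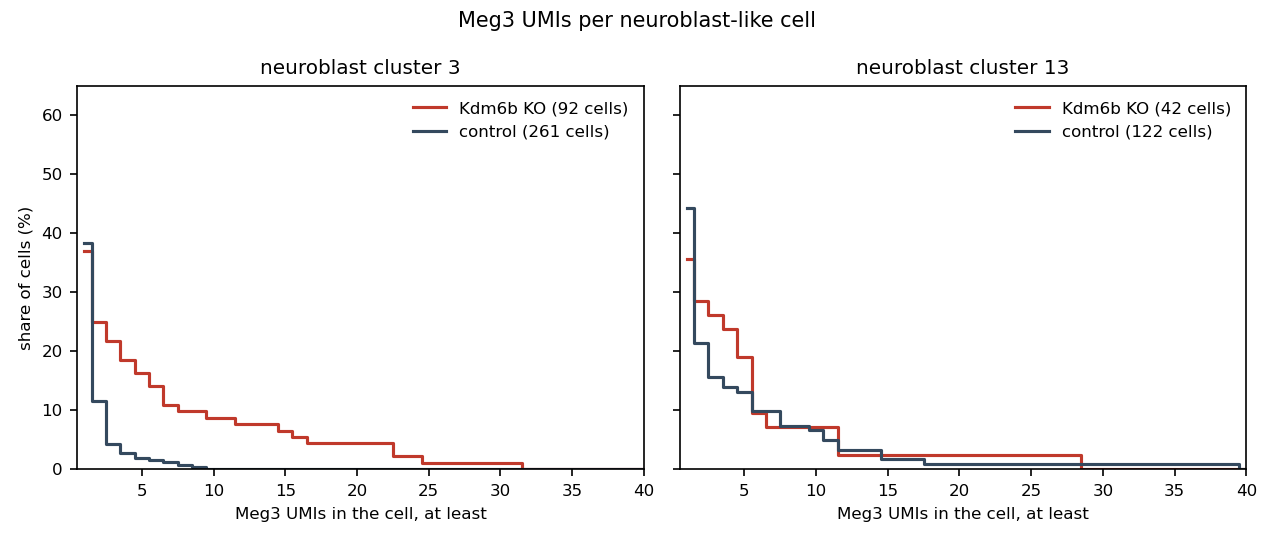
Share of cells (%) with at least the number of Meg3 UMIs on the x axis, for Kdm6b KO (red) and control (blue) cells of the neuroblast-like clusters 3 and 13. In cluster 3 the lines start together at 37.0% and 38.3% for 1 UMI and part by 5 UMIs, at 16.3% for Kdm6b KO and 1.92% for control; in cluster 13 the highest cells hold 28 and 39 UMIs.

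Markers of pyramidal and Cajal-Retzius neurons summed to lower levels in Kdm6b KO in cluster 3. The 16 pyramidal neuron markers summed to 701 CPM in Kdm6b KO and 1484 CPM in control. Of these, 6 were at 0 in Kdm6b KO and 3 in control, where the cluster held 403950 and 941341 UMIs in all. Among the 6 markers with at least 20 UMIs, 1 was higher and 3 lower by 1.5-fold, against 10% and 11.4% of all genes. The 13 GABAergic markers summed to 34.7 CPM in Kdm6b KO and 52.1 CPM in control, with a ratio interval of 0.339 to 1.23 that held 1. At 0 were 9 of them in Kdm6b KO and 8 in control. The 10 Cajal-Retzius markers summed to 116 and 201 CPM, with 7 at 0 in Kdm6b KO and 4 in control. Granule neuron markers were at 1349 CPM in Kdm6b KO and 1289 CPM in control. The 13 ependymal markers were at 69.3 and 28.7 CPM, with 4 at 0 in Kdm6b KO and 5 in control. The part of the ependymal list in the Meg3 values was not tested. Malat1, another RNA retained in the nucleus, had a log2 ratio of 0.16 in neuroblast-like cells.

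In radial glia-like cells, Meg3 had 341 UMIs and 310 CPM in Kdm6b KO, against 122 UMIs and 92.3 CPM in control (log2 ratio 1.74). The clusters of this class had unequal shares in the 2 libraries. Cluster 12, with more Meg3, held 111 Kdm6b KO cells and 57 control cells, and cluster 10 held 45 and 138. Cluster 22, led by cell division genes such as Hmmr and Ccnb1, held 14 and 42 cells, and the shallow cluster 26 held 15 and 28. Within cluster 12 Meg3 was at 462 CPM in Kdm6b KO and 331 CPM in control (log2 ratio 0.47, fold interval 1.08 to 1.83), and within cluster 10 at 52.7 and 53.7 CPM. Ependymal markers summed to 536 CPM in Kdm6b KO and 148 CPM in control over the class, and to 859 and 720 CPM within cluster 12; their part in the Meg3 values was not tested.

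Intermediate progenitor-like cells, which express Eomes and give rise to neuroblasts, had 25 Meg3 UMIs in Kdm6b KO (29.9 CPM, 19.4 to 44.2) and 108 in control (53.6 CPM, 44.0 to 64.7), a log2 ratio of -0.82. After thinning, 2.88% of Kdm6b KO cells and 11.2% of control cells had a Meg3 UMI. Microglia-like cells gave 3 of 22 Kdm6b KO cells (13.6%, 2.91 to 34.9%) and 4 of 36 control cells (11.1%, 3.11 to 26.1%), so the shares of intermediate progenitor-like cells lay inside or below these wide intervals and could not be told apart from free RNA. In microglia-like cells 98 of 103 Meg3 UMIs of the Kdm6b KO library came from 1 cell, and without it the level was 35.8 CPM, against 69.6 CPM in control. Astrocyte-like cells lay in the same range, at 58.2 CPM in Kdm6b KO and 64.1 CPM in control. Ependymal-like cells stood above it, at 189 CPM (171 to 209) in Kdm6b KO and 251 CPM (224 to 279) in control.

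Mirg (chr12:109729764-109749460, plus strand), the microRNA host at the far end of the same maternal transcription domain, was scarce and followed Meg3 in neurons. GABAergic neuron-like cells had 35 Mirg UMIs in Kdm6b KO and 20 in control, or 15.6 CPM (10.9 to 21.7) and 11.8 CPM (7.18 to 18.2). Pyramidal/excitatory neuron-like cells had 86 UMIs in Kdm6b KO and 142 in control, or 7.45 and 10.4 CPM (log2 ratio -0.48, fold interval 0.541 to 0.942). In cluster 1 of that class Mirg had 23 UMIs in Kdm6b KO and 6 in control, the 1 of 6 imprinted genes past 1.5-fold there, against 18% of all genes, and its interval held 1. Neuroblast-like cells had 1 UMI in each library, so a change of Mirg beside that of Meg3 was not detectable at this depth.

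Relative to Meg3, Mirg was higher in cluster 2 than in neurons. Cluster 2 was left unnamed and carried 12 of 12 endothelial and 9 of 12 mural markers. It also carried 5 erythroid and 5 leptomeningeal fibroblast markers, and the haemoglobin genes Hbb-bt, Hbb-bs, Hba-a1 and Hba-a2 were among its leading genes. Cluster 2 had 10.0 Mirg UMIs per 1000 Meg3 UMIs in Kdm6b KO (6.54 to 14.7) and 8.40 in control (5.38 to 12.5). Pyramidal/excitatory neuron-like cells had 1.79 in Kdm6b KO (1.43 to 2.22) and 2.04 in control (1.72 to 2.40), and the intervals of the 2 cell groups did not overlap in either library. GABAergic neuron-like cells had 1.93 in Kdm6b KO and 1.42 in control. B830012L14Rik, which lies between Rian and Mirg on the same strand, gave 6.18 and 7.70 per 1000 Meg3 UMIs in cluster 2, against 2.02 and 2.11 in pyramidal/excitatory neuron-like cells. Other non-neuronal classes had few UMIs and intervals that overlapped those of cluster 2. For Mirg, mural-like cells had 5.73 in Kdm6b KO and 0 in control, and ependymal-like cells 7.5 and 0. For B830012L14Rik, leptomeningeal fibroblast-like cells had 11.5 and 15.6. Cluster 2 gave 26 Mirg UMIs in Kdm6b KO and 24 in control, or 6.25 and 4.83 CPM, against 7.45 and 10.4 CPM in pyramidal/excitatory neuron-like cells. Its cells were deep, with 24212 UMIs per cell at the median in Kdm6b KO.

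**Figure D5:**
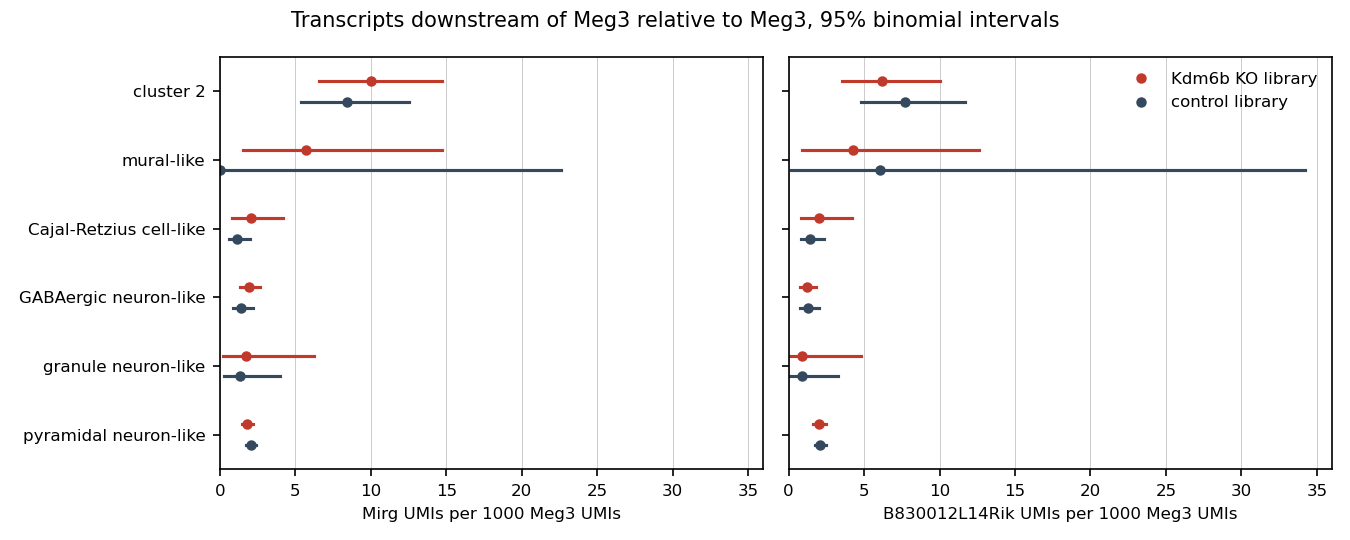
UMIs of Mirg (left) and B830012L14Rik (right) per 1000 Meg3 UMIs by class, with Kdm6b KO (red) above control (blue) and 95% binomial intervals. Cluster 2 lies right of the neuron-like classes for both RNAs, at 10.0 in Kdm6b KO and 8.40 in control for Mirg.

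Dlk1 (chr12:109452823-109463336, plus strand), the paternal partner of Meg3, was found in vessel-associated cells. Mural-like cells had 73 UMIs and 302 CPM (237 to 379) in Kdm6b KO, against 10 UMIs and 147 CPM (70.5 to 270) in control, from 53 and 15 cells. Cluster 2 had 130 UMIs in Kdm6b KO (31.2 CPM) and 222 in control (44.7 CPM), a log2 ratio of -0.52 with a fold interval of 0.558 to 0.871. Leptomeningeal fibroblast-like cells gave no Dlk1 UMI in 15 Kdm6b KO cells, where 3 UMIs would be 28.6 CPM, and 23 UMIs in 33 control cells (114 CPM), found in 10 of them. Neuroblast-like, intermediate progenitor-like and astrocyte-like cells had 0 Dlk1 UMIs in both libraries.

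Igf2 (chr7:142650766-142666816, minus strand), a growth factor of the fetal period, was rare, with 29 UMIs in the Kdm6b KO library and 23 in the control library. Leptomeningeal fibroblast-like cells had 4 UMIs in Kdm6b KO and 12 in control, or 38.2 and 59.4 CPM. Cluster 2 had 24 UMIs in 20 Kdm6b KO cells and 9 UMIs in 9 control cells, or 5.76 and 1.81 CPM (log2 ratio 1.62, fold interval 1.43 to 7.77). That made Igf2 the 1 of 8 imprinted genes past 1.5-fold in cluster 2, where 10% of all genes passed. Gm49394 overlaps Igf2 on the same strand and Igf2os on the other, so its counts could be split.

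H19 (chr7:142575529-142578143, minus strand), the maternal RNA next to Igf2, gave 201 UMIs in Kdm6b KO and 156 in control over all cells, or 7.87 and 4.95 CPM (log2 ratio 0.67). When only cells that had Xist but lacked Y-linked UMIs were kept, that log2 ratio was 0.08. Radial glia-like cells had 70 UMIs in Kdm6b KO and 18 in control, or 63.6 and 13.6 CPM (log2 ratio 2.19, fold interval 2.75 to 8.33). Most of these lay in cluster 12, of which H19 was a leading gene, with 68 UMIs in 24 of 111 Kdm6b KO cells and 14 UMIs in 6 of 57 control cells. Within that cluster the levels were 104 CPM in Kdm6b KO and 62.6 CPM in control, and the fold interval of 0.923 to 3.19 held 1. Ependymal-like cells were alike, at 34.1 CPM in Kdm6b KO and 34.5 CPM in control. Leptomeningeal fibroblast-like cells had no H19 UMI in 15 Kdm6b KO cells, where 3 UMIs would be 28.6 CPM, and 42 UMIs in 9 of 33 control cells (208 CPM). In mural-like cells 40 of the 41 UMIs of the Kdm6b KO library came from 1 cell, and the control library had 0 in 15 cells.

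Plagl1 (chr10:13060504-13131694, plus strand), a zinc finger factor known in mouse to act on other imprinted genes, was high in ependymal-like cells, at 86.2 CPM (74.1 to 99.6) in Kdm6b KO and 101 CPM (84.2 to 119) in control. Radial glia-like cells had 94 UMIs and 85.4 CPM in Kdm6b KO, against 42 UMIs and 31.8 CPM in control (log2 ratio 1.42). Within cluster 12 the levels were 134 CPM in Kdm6b KO and 112 CPM in control (log2 ratio 0.24), and cluster 10 had 3 and 13 UMIs. In cluster 5 of the pyramidal/excitatory neuron-like cells Plagl1 had 18.3 CPM in Kdm6b KO and 8.39 CPM in control (log2 ratio 1.11, fold interval 1.37 to 3.54), the 1 of 6 imprinted genes past 1.5-fold there, against 14.5% of all genes. Neuroblast-like cells had 3 UMIs in Kdm6b KO and 5 in control.

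Peg3 (chr7:6703892-6730431, minus strand), which encodes a zinc finger protein, was spread over most classes. Among the named classes and cluster 17, its levels were highest in leptomeningeal fibroblast-like cells and in cluster 17, an unnamed cluster led by Wnt8b, Lmx1a and Rspo3, where it had 211 CPM in Kdm6b KO and 220 CPM in control. Radial glia-like cells had 42 UMIs in Kdm6b KO and 87 in control, or 38.2 and 65.8 CPM (log2 ratio -0.78, fold interval 0.391 to 0.847). Here both clusters pointed the same way: cluster 10 had 5 UMIs in Kdm6b KO and 45 in control (20.3 and 75.5 CPM), and cluster 12 had 51.9 and 85.0 CPM, with a fold interval of 0.338 to 1.13. In pyramidal/excitatory neuron-like cells the class as a whole had 85.0 CPM in Kdm6b KO and 82.1 CPM in control (log2 ratio 0.05). Its 4 clusters each had more Peg3 in Kdm6b KO, with log2 ratios of 0.24 in cluster 0, 0.58 in cluster 1, 0.46 in cluster 5 and 0.38 in cluster 6, and the interval of cluster 6 held 1. Neuroblast-like cells had 60.7 CPM in Kdm6b KO and 59.9 CPM in control.

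Ndn (chr7:62346569-62350262, plus strand), which encodes necdin, a protein of postmitotic neurons that restrains cell growth, was present in every neural class. Pyramidal/excitatory neuron-like cells had 519 CPM (506 to 533) in Kdm6b KO and 502 CPM (491 to 514) in control, and GABAergic neuron-like cells 522 and 510 CPM. Neuroblast-like cells had 212 UMIs and 348 CPM in Kdm6b KO, against 396 UMIs and 283 CPM in control (log2 ratio 0.30, fold interval 1.04 to 1.46). Cluster 3 held that difference too, with 347 CPM in Kdm6b KO and 252 CPM in control (log2 ratio 0.46), while cluster 13 had 351 and 345 CPM. Intermediate progenitor-like cells had 150 CPM in Kdm6b KO and 180 CPM in control, and cluster 2 had 20.4 and 20.3 CPM.

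Snrpn (chr7:59982495-60140219, minus strand), which encodes a neuronal component of the splicing machinery, was at 1132 CPM in Kdm6b KO and 1057 CPM in control in GABAergic neuron-like cells. It was lower toward the stem cells: granule neuron-like cells had 847 CPM in Kdm6b KO and 851 CPM in control, neuroblast-like cells 373 and 297 CPM, intermediate progenitor-like cells 146 and 130 CPM, and radial glia-like cells 90.9 and 81.7 CPM. In neuroblast-like cells the log2 ratio was 0.33 with a fold interval of 1.06 to 1.48. In cluster 12 Snrpn had 59 UMIs in Kdm6b KO and 10 in control (90.0 and 44.7 CPM), and together with H19 made 2 of 6 genes at least 1.5-fold higher there, with Peg3 lower, against 26% of all genes, 13% higher and 13% lower. Gm38393 and Snurf overlap Snrpn on the same strand, so its counts could be split: Snurf had 0 UMIs and Gm38393 had 243 in Kdm6b KO and 223 in control over all cells.

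The profiles of the imprinted genes over the 8 units and both libraries (16 points each, Pearson's r of log2 CPM + 1, among 10149 genes) were set beside those of all other genes as a description. The profile nearest to that of Meg3 was Chmp2b at 0.981, then Slc2a3 at 0.969 and Wsb2 at 0.946. The nearest to Mirg was Meg3 at 0.942, and the nearest to Peg3 was Ndn at 0.968. For Snrpn it was Pclo at 0.991, for Ndn Pfn2 at 0.980, for Dlk1 Lcp1 at 0.969, for Plagl1 Sh3pxd2b at 0.913 and for H19 Stard10 at 0.883. For Igf2 it was a row named Ccl21a at 0.961, a symbol with near-identical copies. The points share libraries and depth.

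Of 47 other imprinted genes listed, 44 had a row, and 37 had at least 20 UMIs over all cells, of which 4 were higher and 2 lower by 1.5-fold in Kdm6b KO, against 8.36% higher and 5.37% lower of all genes. Those with the most CPM were Nnat at 2691 CPM in Kdm6b KO and 3035 CPM in control, Gnas at 1252 and 1014, Ube3a at 278 and 278, Inpp5f at 152 and 125, Kcnq1ot1 at 149 and 142, and Blcap at 97.2 and 105. In neuroblast-like cells 20 were counted, of which 2 were higher (Nap1l5 and Trappc9) and 3 lower (Osbpl5, Mest and Zrsr1), against 8.14% higher and 10.4% lower of all genes. Nap1l5 had 51 UMIs in Kdm6b KO and 58 in control, or 83.7 and 41.4 CPM (log2 ratio 1.02, fold interval 1.36 to 3.0). Gnas, which encodes a G protein subunit, had 1013 CPM in Kdm6b KO and 739 CPM in control (log2 ratio 0.46). Mest, a paternal gene, had 36.1 CPM in Kdm6b KO and 68.5 CPM in control (log2 ratio -0.90, fold interval 0.316 to 0.845). Kcnq1ot1 had a log2 ratio of 0.41 there, Inpp5f 0.36 and Nnat -0.09.

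Of the 12 factors listed that set or keep imprints, 9 were counted over all cells. Among them 1, Dnmt3b, was higher by 1.5-fold in Kdm6b KO and 0 lower, against 8.36% and 5.37% of all genes. In neuroblast-like cells 7 were counted and 0 passed 1.5-fold, against 18.5% of all genes. In radial glia-like cells 8 were counted and 3 were lower, Zfp57, Dnmt1 and Uhrf1, against 12.4% lower of all genes, in the class whose 2 main clusters were shared unequally between the libraries. Within cluster 12 of that class 5 factors were counted and 0 passed 1.5-fold, against 26% of all genes. In intermediate progenitor-like cells 8 were counted, with Dnmt1 higher and Dnmt3a lower by 1.5-fold, against 7.29% higher and 12.4% lower of all genes. In astrocyte-like cells 7 were counted, with Uhrf1 higher and Dnmt1 lower, against 11.4% higher and 11.2% lower of all genes. Of 5 listed nuclear RNAs that are not imprinted, 5 were counted over all cells. Neat1 was higher and Snhg11 lower by 1.5-fold, against 8.36% higher and 5.37% lower of all genes. Malat1 had log2 ratios of 0.65 in radial glia-like cells, -0.06 in cluster 12, 0.42 in intermediate progenitor-like cells and -0.15 in pyramidal/excitatory neuron-like cells.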

How the data were processed

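The authors deposited raw UMI counts per gene and cell barcode for each library, made with Cell Ranger 3.0.2 per the file headers; Seurat 3 and the mouse build mm10 are named in the submitters' processing notes. Of 2292 Kdm6b KO and 3555 control barcodes, those with at least 500 genes, 1000 UMIs and at most 10% mitochondrial UMIs were kept (1967 and 3029). Scrublet marked 7 and 5 cells (0.356% and 0.165%), which is too low a share for the caller to have worked; instead the cells with the highest scores were removed, 0.8% for each 1000 cells (31 and 73). Cells were clustered with scanpy 1.11.5 (2000 variable genes without imprinted, Y-linked and haemoglobin genes, Xist and Prm1, 30 components, Leiden resolution 1) and named from at least 3 detected markers. The resulting counts were summed per class and library and divided by the class total to give CPM. Log2 ratios added 0.5 UMI, and genes with at least 20 UMIs were counted against 1.5-fold. Levels carry exact Poisson intervals, shares exact binomial (Clopper-Pearson) intervals and ratios conditional binomial intervals, at 95%, for counting error only. Ratios are given for units with at least 50 cells in each library, and for single clusters of a class with at least 30. The ratio script was tested on simulated data. Gene positions are from GENCODE, and promoters and microRNAs from RefSeq. edgeR 4.0.16 gave TMM factors for an alternative scaling only. All 9 imprinted genes present are named; of 47 others, those with the most CPM and those with the ratio interval farthest from 1 in neuroblast-like cells, by rule; genes outside it were chosen after their values were seen. The imprinted genes and all lists were chosen with earlier results of these data known.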

Additional observations from a re-analysis of the deposited data

Results flagged for a closer look

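The Meg3 ratio of Kdm6b KO over control had opposite signs in neighbouring stages. It was 0.94 on the log2 scale in neuroblast-like cells and -0.82 in intermediate progenitor-like cells, and 1.74 in radial glia-like cells against the same -0.82. The difference between these stages was not tested, since each genotype has 1 library. Meg3 was selected on its value in neuroblasts, so that side of the contrast is a description. In neuroblast-like cells Meg3 was at 577 CPM in Kdm6b KO and 173 CPM in control in cluster 3, but at 449 and 495 CPM in cluster 13. The radial glia-like clusters had unequal shares in the libraries, with Meg3 at 462 and 331 CPM in cluster 12 and at 52.7 and 53.7 CPM in cluster 10. The value in intermediate progenitor-like cells rests on 25 UMIs in Kdm6b KO and 108 in control, at shares of cells (2.88% and 11.2% after thinning) that could not be told apart from those of the few microglia-like cells (13.6% and 11.1%).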

How the results depend on the processing

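With 1 library per genotype no library could be left out. No paired analysis was possible because each genotype has only 1 library. The Meg3 log2 ratio in neuroblast-like cells (0.94) became 2.05 with no filter on barcodes, 1.33 as a mean over cells, 1.25 after thinning to 2000 UMIs, 0.35 without the 10 highest cells of each library, 1.73 in cluster 3 alone and -0.14 in cluster 13 alone, where it reversed; Leiden resolution 0.5 gave no neuroblast-like class. With only cells that had Xist but lacked Y-linked UMIs it was 0.81. The count of imprinted genes past 1.5-fold in neuroblast-like cells (1, Meg3, selected on its value there) was 2 with no filter, 0 without the 10 highest cells and 0 in cluster 13. The count over all cells (2) was 1 with no filter, 1 with a stricter filter, 0 with no doublet removal, 0 with that restriction, and 1 without the highest cell or the 10 highest cells. The 3 genes higher in non-neural classes became 0 without the 10 highest cells of each class and library. Those cells held all control UMIs of these genes in mural-like and leptomeningeal fibroblast-like cells, of which there were 15 and 33. That setting therefore cannot test this count. The 6 pairs of gene and class past 1.5-fold with an interval without 1 became 10 with no filter and 11 with each library clustered on its own. These 6 include Meg3 in neuroblast-like cells, which was selected on that value. The share of all genes past both limits was not taken, so these counts have no background and are a description. Over the other 45 ratios of gene and class, without Meg3 in neuroblast-like cells, and 18 alternatives, 677 of 783 values moved by less than their interval, 106 moved further and 0 gave the opposite sign to a ratio past 1.5-fold. The 2 settings that leave out highest cells were chosen after seeing the data. Few UMIs limit Mirg, Igf2 and Dlk1 outside vessel cells.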

Other observations

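Among the other imprinted genes, chosen after their values were seen, Zrsr1, a paternal gene within an intron of Commd1, was lower in Kdm6b KO in several neuron classes. It was also at least 1.5-fold lower in neuroblast-like and intermediate progenitor-like cells. Over all cells it had 289 UMIs in Kdm6b KO and 606 in control, or 11.3 and 19.2 CPM (log2 ratio -0.76, fold interval 0.510 to 0.678). In pyramidal/excitatory neuron-like cells Zrsr1 had 11.1 CPM in Kdm6b KO and 23.4 CPM in control (log2 ratio -1.07), and in GABAergic neuron-like cells 11.6 and 25.3 CPM (log2 ratio -1.12). In cluster 2 the Zrsr1 log2 ratio was -0.37 and in ependymal-like cells -0.21, and both intervals held 1.

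Mest was lower in intermediate progenitor-like cells, with 39 UMIs in Kdm6b KO and 252 in control, or 46.7 and 125 CPM (log2 ratio -1.40, fold interval 0.260 to 0.525), and in neuroblast-like cells as given above. In ependymal-like cells it was higher, with 33 UMIs in Kdm6b KO and 5 in control, or 15.6 and 3.75 CPM (Mest log2 ratio 1.94, fold interval 1.62 to 13.7). In cluster 2 Mest had 165 CPM in Kdm6b KO and 205 CPM in control (log2 ratio -0.31). Mest was also at least 1.5-fold lower in clusters 0, 1 and 5 of the pyramidal/excitatory neuron-like cells, though not in that class as a whole.

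Zim1, a maternal neighbour of Peg3, was nearly confined to pyramidal/excitatory neuron-like cells, with 282 of the 295 UMIs of the Kdm6b KO library and 180 of the 197 of the control library. There Zim1 had 24.4 CPM in Kdm6b KO and 13.2 CPM in control (log2 ratio 0.89, fold interval 1.53 to 2.25), and its log2 ratio was 0.79 in cluster 0, 1.08 in cluster 1, 1.40 in cluster 5 and 0.64 in cluster 6, where the interval held 1.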
